A study of Mus musculus with 18 samples.

Results

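When 3T3-L1 cells are induced to become fat cells they first divide again, and many genes are switched on or off for that interval and then return. The genes described here had mean levels at both stages of this interval, MCE1 and MCE2, that lay above the means of both the cells labelled Control and the fat cells of Day8, or below both. They were found by the order of the 4 group means of log2(TPM + 1), where TPM is a transcript level scaled to the library total and corrected for length. A gene had to reach 1 TPM in 3 or more of the 12 libraries of these groups. Of 25209 gene names listed, 12369 passed this filter, and 4580 of them met the rule. In 1751 genes both MCE means lay above both ends (14.2% of the genes tested), and in 2829 both lay below (22.9%).

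Polyadenylated RNA of 3T3-L1, a mouse embryo fibroblast line committed to the fat lineage, was sequenced in 6 groups of 3 libraries. Per the labels, cells 2 days past confluence were given 10 µg/mL insulin, 0.25 µM dexamethasone and 0.5 mM IBMX for 48 h, in medium with 10% serum, and 5 µg/mL insulin after that, with fresh medium every 2 days. Dexamethasone is a synthetic glucocorticoid, and IBMX blocks phosphodiesterases and so raises cAMP. Control, MCE1 and MCE2 carry those names alone in the labels, and MCE was taken to mean mitotic clonal expansion. The later groups are named by days after the stimuli. No hour is given for either MCE stage, so whether dexamethasone and IBMX were still present at MCE2 is not stated, nor is it stated whether Control cells were confluent. Replicates are not described as separate cultures, and the p-values therefore reflect the spread among libraries that may be technical repeats. All groups are 1 line grown in culture, and fewer cells of a type and less RNA per cell cannot be told apart in bulk RNA.

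In adipogenesis the glucocorticoid and the cAMP signal induce the transcription factors C/EBP beta and C/EBP delta, which act before PPAR gamma and C/EBP alpha, the factors that hold the mature fat cell state. The same hours see the cells lose their actin stress fibres, remodel their matrix from a fibrillar to a basement membrane type, and pass through DNA synthesis. Glucocorticoids act through a receptor that binds palindromic DNA sites, cAMP through the CREB family, sterol depletion through SREBP2, and amino acid or folding stress through the factor ATF4.

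Library totals ranged from 869497 to 880273 listed TPM. This unit does not carry the number of reads, so the sequencing depth behind each value is unknown. Pearson's r on log2(TPM + 1) across genes, which are not independent replicates, ranged from 0.976 to 0.991 among replicates and from 0.799 to 0.961 across groups. None of the libraries were duplicates, with 0 identical pairs. The summed level of 18 preadipocyte markers was 1278 to 1335 TPM in Control and 601 to 683 TPM at Day8, while Fabp4, the fatty acid carrier of fat cells, read 26.2, 27.3 and 30.5 TPM in Control and 15915, 14156 and 16814 TPM at Day8. Of 14 macrophage markers 4 passed the filter, with a summed level (all 14) of 6.71 to 21.4 TPM across the 12 libraries, and Adgre1, Ptprc, Itgam, Tyrobp, Cd163, C1qa and C1qb were listed at 0 in each. Of 10 endothelial markers 0 passed the filter.

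A gene was called a peak or a trough when all 4 differences between an MCE group and an end group had the same sign and the largest of their 4 p-values passed. P-values came from limma with Benjamini-Hochberg adjustment across the 12369 genes, and the threshold was 0.05. By that rule 499 genes were called peaks (4.03%) and 843 troughs (6.82%), with 3 libraries per group. The 6 MCE libraries lay above all 6 end libraries in all 499 peaks, a pattern seen in 6.57% of genes tested, and below them in 841 of 843 troughs, a pattern seen in 11% of genes tested. For every peak named here the 6 MCE libraries are therefore the 6 highest of the 12. Between the lower MCE mean and the higher end mean, called the gap (for troughs, between the lower end mean and the higher MCE mean), the median was 0.53 log2 units for peaks and 0.65 for troughs. In 106 peaks (0.857% of genes tested) and 205 troughs (1.66%) the gap was at least 1. The balance of peaks and troughs moved with scaling, to 699 peaks and 709 troughs with median-ratio scaling and 640 and 644 with quantile normalization, while 488 and 470 of the 499 peaks and 683 and 612 of the 843 troughs were called again. In the pooled difference, the mean of MCE1 and MCE2 minus the mean of Control and Day8, 3426 genes were higher (27.7%) and 4809 lower (38.9%). With 2 pools of 6 libraries in place of 4 groups 1139 were higher and 1916 lower, so the pooled counts of the lists rest on the fit by group. Control replicate 1 lists 12 genes at another locus, which were left out; without that library 444 peaks and 736 troughs were called, of which 431 and 724 were among those above.

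The members nearest to the edge of the rule show what it admits. The MCE2 mean of Rptor, a subunit of the growth kinase complex mTORC1, lay just above that of Control, with 31, 30.6 and 31.5 TPM against 31.4, 30.3 and 31.3 TPM, so it was counted as a member and was not called. Cab39l, a partner of the kinase LKB1, missed the rule narrowly, with 38.3, 38.9 and 41.9 TPM at MCE2 and 40.7, 38.2 and 40.2 TPM in Control. Among genes below both ends Cstb, an inhibitor of cathepsins, stood just inside, with 309.9, 297 and 294 TPM at MCE2 and 269, 302 and 333 TPM at Day8. Pck1, which makes glycerol phosphate for fat storage, stood just outside, being listed at 0 in each Control, MCE1 and MCE2 library.

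The peaks with the largest gaps were Retnla, Ren1, Prg4 and Pip, all secreted proteins. Retnla (chromosome 16, 48842722 to 48844574 in mm9), a secreted cysteine-rich protein related to resistin, read 101, 101 and 99.1 TPM at MCE1 and 57.6, 59.3 and 66.3 TPM at MCE2. It was listed at 0 in Control replicates 1 and 2 and in each Day8 library, and read 0.261 TPM in Control replicate 3, so the 6 MCE libraries stood apart from the 6 others (adjusted p = 4.68e-11). Ren1 (chromosome 1, 135247251 to 135256896), which encodes the protease renin, was listed at 0 in all 6 libraries of the ends, and read 9.43, 13.7 and 14.1 TPM at MCE1 and 101, 87.2 and 80.3 TPM at MCE2 (adjusted p = 2.14e-08). Its level rose from MCE1 to MCE2 by 2.76 log2 units (adjusted p = 6.76e-08). Prg4 (chromosome 1, 152296542 to 152313295), the lubricin of joints, read 32.4, 29.2 and 30.5 TPM at MCE1 and 18.2, 22 and 21 TPM at MCE2. Prg4 was at 0.256, 0.213 and 0.276 TPM in Control and 0.509, 1.07 and 0.468 TPM at Day8. The gap of Prg4 was 3.68 (adjusted p = 1.84e-08). Pip, a secreted protein of exocrine glands, was listed at 0 in the 6 end libraries and stood at 14.6 ± 1.75 TPM at MCE1 and 8.97 ± 1.79 TPM at MCE2 (mean ± SD, n = 3). Retnla, Ren1 and Pip passed the filter of 1 TPM through the MCE libraries alone. Prg4 reached 1 TPM at the ends in Day8 replicate 2 alone, so it needed the MCE libraries too. Ear12, Ifi205, Ifitm5 and Lbp, named below, also reached 1 TPM in too few end libraries to pass without the MCE libraries. For such genes entry into the test depended on the stages where they are high, and their calls are descriptions. The other genes named by size of gap were Fkbp5, Orm3, Ifi204, Krt13, Sned1, Ugt1a7c, Pde10a, Lcn2, Ear12, Tsc22d3 and Ctla2a.

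**Figure D1:**
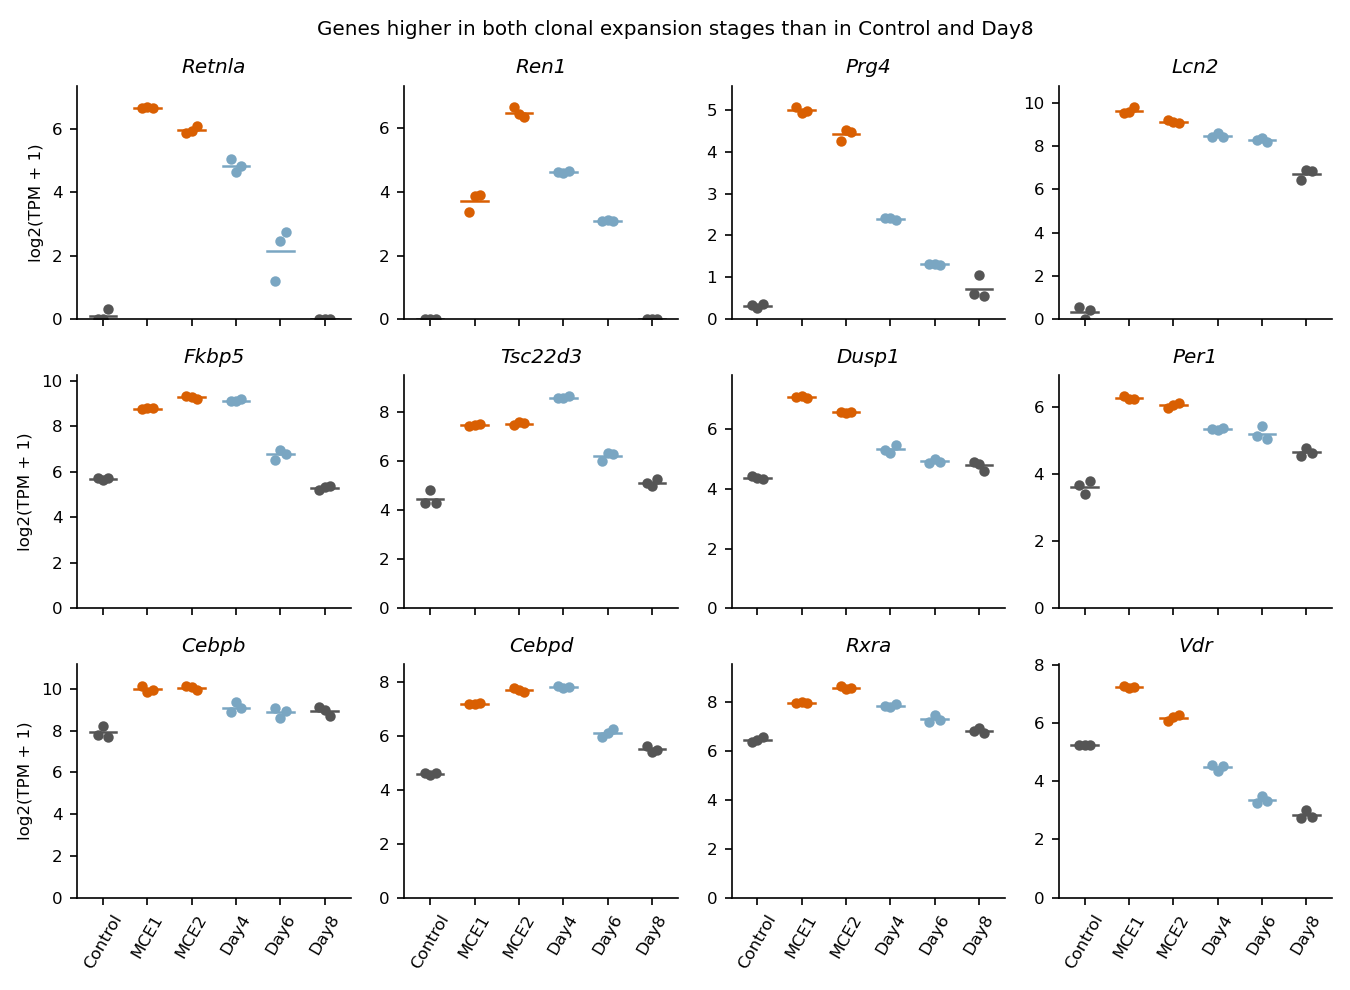
Level of 12 called peaks in each of the 18 libraries, as log2(TPM + 1) on the vertical axis (starting at 0) against the 6 groups. Points are libraries (orange for MCE1 and MCE2, grey for Control and Day8, blue for Day4 and Day6) and lines are group means; in each panel the 6 orange points lie above the 6 grey ones, and Tsc22d3 and Cebpd are as high or higher at Day4, while Vdr at Day4 is already below Control.

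Of the 29 lists with at least 10 genes tested, the glucocorticoid responsive genes had the highest share of peaks. Of 21 such genes tested 10 were called peaks (4.03% of all genes tested were) and 1 a trough, and the median pooled difference was 1.45 log2 units against -0.09 over all genes. Fkbp5 (chromosome 17, 28535698 to 28623094), a co-chaperone that restrains the glucocorticoid receptor, read 428, 441 and 439 TPM at MCE1 and 631, 615 and 588 TPM at MCE2. Control read 51.2, 49.2 and 52.3 TPM and Day8 35.4, 38.9 and 39.9 TPM, a difference of 3.52 ± 0.04 log2 units (± SE, adjusted p of the peak = 3.97e-11). Tsc22d3 (chromosome X, 137074068 to 137083110), the leucine zipper protein GILZ that mediates anti-inflammatory effects of glucocorticoids, read 173, 178 and 182 and 174, 190.5 and 187 TPM at MCE1 and MCE2. It read 18.5, 27.1 and 18.7 TPM in Control and 33.4, 30.8 and 37.8 TPM at Day8 (adjusted p = 2.18e-07), and was higher still at Day4, with 375, 381 and 396 TPM. Lcn2, lipocalin 2, a carrier of iron-binding siderophores, read 746, 764 and 892 TPM at MCE1 and 583, 554 and 546 TPM at MCE2. Control was at 0.486, 0 and 0.34 TPM and Day8 at 84.7, 119 and 114 TPM, so Lcn2 came down from its peak without returning to its starting level (Day8 minus Control 6.39, adjusted p = 1.03e-11). The metal-binding metallothioneins Mt1 and Mt2, which lie side by side on chromosome 8, were peaks with gaps of 0.68 and 1.15 (adjusted p = 0.0027 and 6.42e-05). Glul, glutamine synthetase, was a peak on a raised end, with 419.5 ± 4.46 and 523 ± 5.76 TPM at the MCE stages, 37.1 ± 0.167 TPM in Control and 309 ± 14.8 TPM at Day8. The Day4 and Day6 means of Glul were above both MCE means, at 783 ± 38.8 and 550 ± 65.55 TPM, so it was not highest in this interval. Nfkbia, an inhibitor of NF-kappaB, had a gap of 0.32, and its call ended without any 1 of Control replicates 2 and 3 or MCE1 replicates 1, 2 and 3 (adjusted p = 0.0543 to 0.0747). Zbtb16, a zinc finger repressor, was a member but was not called (12 ± 1.35, 17.2 ± 2.62 and, at Day8, 8.42 ± 1.67 TPM, adjusted p = 0.0881). The 1 trough was Pdk4, a kinase that shuts down pyruvate oxidation, at 6.25 ± 0.431 and 7.17 ± 1.18 TPM against 16 ± 1.34 TPM in Control and 12.2 ± 2.14 TPM at Day8.

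Some promoters of peaks hold a full glucocorticoid receptor palindrome. RefSeq promoters (GRCm38.p6) matched 400 of the 499 peaks, 653 of the 843 troughs and 9586 of the 12369 genes tested, and the 250 bases upstream of each start were searched on both strands. The palindrome, GNACA and TGTNC with 3 bases between them, stood in 6 peaks (1.5% of those matched), 2 troughs (0.306%) and 0.334% of all genes tested, and in 0.387% of all 32851 promoters. The 6 peaks were Fam107a, Map3k6, Mt1, Serpina3n, Slc10a6 and Suox, of which Mt1 alone was in the list above. The windows below are shown because their genes were peaks and hold the match, which is in capitals: Mt1 (chr8:94178941-94179060, plus strand), Serpina3n (chr12:104406576-104406695, plus strand) and Map3k6 (chr4:133240583-133240702, plus strand), each printed 5′ to 3′ along the gene.
Mt1: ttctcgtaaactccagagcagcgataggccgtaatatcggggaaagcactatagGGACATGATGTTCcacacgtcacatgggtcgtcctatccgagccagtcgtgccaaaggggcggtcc
Serpina3n: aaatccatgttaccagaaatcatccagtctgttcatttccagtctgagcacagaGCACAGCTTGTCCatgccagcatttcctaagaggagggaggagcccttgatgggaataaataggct
Map3k6: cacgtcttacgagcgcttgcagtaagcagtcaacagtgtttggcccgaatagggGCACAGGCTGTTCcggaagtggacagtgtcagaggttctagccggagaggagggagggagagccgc
Map3k6, a stress-activated kinase, read 54.4, 48.6 and 52.4 TPM at MCE1 and 49.7, 46.3 and 52.3 TPM at MCE2. Map3k6 was at 9.45, 10.2 and 10.9 TPM in Control and 7.58, 7.28 and 7.24 TPM at Day8 (gap 2.17, adjusted p = 1.53e-08). Fam107a, which binds actin, read 0 TPM in all Control libraries, 10.8 ± 1.09 and 19.96 ± 0.825 TPM at the MCE stages and 2.8 ± 0.51 TPM at Day8, and was highest at Day4, at 67 ± 16.3 TPM. These matches are descriptions of the letters, not of binding.

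Of 18 genes tested that respond to cAMP 6 were peaks and 1 a trough (Atf3), against 4.03% and 6.82% of all genes tested. In the pooled difference 7 were higher and 5 lower, against 27.7% and 38.9% of all genes. The peaks Dusp1 and Per1 are in the glucocorticoid list too. Dusp1 (chromosome 17, 26642536 to 26645417), a phosphatase that switches off MAP kinases, read 132, 135 and 129 TPM at MCE1 and 93.6, 91.9 and 93.9 TPM at MCE2. Dusp1 was at 20.4, 19.5 and 18.9 TPM in Control and 29, 27.6 and 23.2 TPM at Day8. Its 6 MCE libraries lay above the others by a gap of 1.78 (adjusted p = 3.3e-08), and it was lower at MCE2 than at MCE1 (-0.50 log2 units, adjusted p = 0.000223). Pde4d and Pde10a, phosphodiesterases that break down cyclic nucleotides, stood at 20.5 ± 0.736 and 11.2 ± 3.08 TPM at MCE1. Pde4d was at 6.72 ± 0.262 TPM in Control and 9.49 ± 1.81 TPM at Day8 (gap 1.05, adjusted p = 7.97e-05). Pde10a varied between replicates, with 4.57, 14.1 and 9.22 TPM at MCE2 against 1.05, 0.134 and 1.46 TPM in Control (adjusted p = 0.00172). Nr4a1, an orphan nuclear receptor, and Sik1, a kinase that restrains CREB coactivators, were peaks with gaps of 0.99 and 0.56 (adjusted p = 6.95e-06 and 0.00222). Crem, the repressor of the CREB family, was neither, at 1.37 ± 0.616 TPM at MCE1 and 3.05 ± 1.2 TPM at Day8. The full cAMP response element TGACGTCA stood in 14 of 400 peaks (3.5%), 13 of 653 troughs (1.99%), 3.04% of all genes tested and 1.55% of all promoters, and Dusp1 was the 1 peak of this list that held it. That window of Dusp1 (chr17:26508552-26508671, minus strand) is shown with the element in capitals.
Dusp1: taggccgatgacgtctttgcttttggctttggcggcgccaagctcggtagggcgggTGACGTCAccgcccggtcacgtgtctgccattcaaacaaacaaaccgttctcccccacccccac

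Of 18 early adipogenic transcription factors 4 were peaks and 2 troughs (4.03% and 6.82% of all genes tested were). Cebpd (chromosome 16, 15887379 to 15889638) read 146, 147 and 149 TPM at MCE1 and 224, 209 and 197 TPM at MCE2. Cebpd was at 23.8, 22.3 and 23.5 TPM in Control and 48.2, 41.4 and 44.1 TPM at Day8. The difference was 2.41 ± 0.05 log2 units (adjusted p of the peak = 2.05e-08), and Cebpd fell from Day4 to Day6 by 1.72 log2 units (adjusted p = 3.4e-10). Cebpb (chromosome 2, 167514415 to 167515932) read 1143, 934 and 987 TPM at MCE1 and 1145, 1079 and 1003 TPM at MCE2, 225, 299 and 206 TPM in Control and 562, 517 and 416 TPM at Day8 (adjusted p = 0.000384). Of the 4 groups compared both factors were therefore highest at the MCE stages, and both were higher at Day8 than in Control, Cebpb by 1.04 (adjusted p = 3.89e-05) and Cebpd by 0.91 (adjusted p = 1.26e-07). Rxra, the partner with which PPAR gamma binds DNA, read 249, 252 and 244 TPM at MCE1 and 404, 368 and 376 TPM at MCE2. Rxra was at 82.1, 84.7 and 94.5 TPM in Control and 110.3, 119.8 and 106 TPM at Day8 (gap 1.14, adjusted p = 3.04e-07). Vdr, the vitamin D receptor, read 154, 146 and 150.2 TPM at MCE1 and 65.5, 72.4 and 76.8 TPM at MCE2, 37, 36.8 and 37.1 TPM in Control and 5.66, 6.96 and 5.77 TPM at Day8. It was thus already lower at MCE2 (-1.06, adjusted p = 9.38e-07) and ended below its start (-2.42, adjusted p = 1.38e-10). The troughs were the immediate early factor Egr1 and the Kruppel-like factor Klf6. Egr1 read 9.76, 6.42 and 7.06 TPM at MCE1 and 35.5, 36.2 and 39.8 TPM in Control (adjusted p = 0.000571), while the call of Klf6 (gap 0.31) ended without any 1 of Control replicate 1 or MCE1 replicates 1, 2 and 3 or Day8 replicates 2 and 3 (adjusted p = 0.0504 to 0.109). Of 10 late factors 0 were peaks (0 by the order of means too) and 1, Nr1d1, a trough. Cebpa stood at 3.57 ± 0.356, 19.3 ± 1.85, 113 ± 17.2 and 405 ± 96.8 TPM in Control, MCE1, MCE2 and Day8 and was no member, and Pparg, with Day8 libraries as far apart as 35.4, 184 and 45.2 TPM, was no member either.

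Acute phase and neutrophil granule genes gave 7 peaks and 0 troughs of 21 tested, with 15 higher and 4 lower in the pooled difference. Shares over all genes tested were 4.03% peaks, 6.82% troughs, 27.7% higher and 38.9% lower. The list medians against Control were 2.71 at MCE1, 2.74 at MCE2, 3.61 at Day4, 3.47 at Day6 and 2.75 at Day8. By its median the list was thus highest at Day4, and at Day8 it was not below its MCE levels. The 7 peaks were Orm3, Il1rn, Lcn2, Serpina3m, Saa3, Serpina3n and Lbp. Orm3, an orosomucoid that carries lipophilic compounds in plasma, read 33.8, 40.7 and 46.8 TPM at MCE1 and 109, 119 and 105 TPM at MCE2, 1.02, 0.522 and 0.442 TPM in Control and 2.88, 4.51 and 5.37 TPM at Day8 (gap 3.00, adjusted p = 8.74e-07). Saa3, serum amyloid A, was listed at 0 in Control and read 16.1, 16.9 and 16.5 TPM at MCE1, 35.1, 31.1 and 33.1 TPM at MCE2 and 8.9, 5.13 and 4.01 TPM at Day8. Il1rn, the interleukin 1 receptor antagonist, was listed at 0 in the 6 end libraries and read 5.43, 5.64 and 6.39 TPM at MCE1 and 5.29, 6.16 and 5.68 TPM at MCE2. It passed the filter through the MCE libraries alone. The call of Serpina3n, a protease inhibitor, ended without any 1 of MCE2 replicate 3 or Day8 replicate 1 and with a pseudocount of 0.1 (adjusted p = 0.0585 to 0.0844), and that of Lbp, the lipopolysaccharide binding protein, without any 1 of Control replicates 1, 2 and 3 or MCE1 replicates 1, 2 and 3 or MCE2 replicates 1, 2 and 3, with a pseudocount of 0.1 and without the filter on low values (adjusted p = 0.0502 to 0.178). S100a8, a calcium-binding protein of neutrophils, was listed at 0 in Control and was a member but not called, at 57.7 ± 1.3 TPM at MCE1, 19.97 ± 0.919 TPM at MCE2 and 17.3 ± 4.31 TPM at Day8. Orm and Serpina3 are families of near-identical copies, so how reads were shared among their members is uncertain. Of 11 chemokines limma called 0 peaks and 1 trough (Ccl9), near the shares over all genes (4.03% and 6.82%), and 8 were lower in the pooled difference (38.9% of all genes were). Ccl2, the monocyte attractant, stood at 436 ± 56.2 TPM in Control, 64.9 ± 5.6 TPM at MCE1, 5.56 ± 0.654 TPM at MCE2 and 9.34 ± 1.53 TPM at Day8. It was no member, since MCE1 lay between the ends.

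Several peaks were neighbours in the genome. Positions here are those of the files (mm9), and stretches were counted where at least 3 genes of the same call each lay within 200000 bases of the next. On chromosome 14, from 44396431 to 44681196, 5 of 7 genes tested were peaks, and they were Ear1, Ear2, Ear3, Ear10 and Ear12, ribonucleases known from eosinophils. Ear3 and Ear12 are listed at the same interval, 44680552 to 44681022, which lies inside that of Ear2, 44680319 to 44681196. These names therefore do not mark separate neighbouring places, and the count of 5 is one of names. Ear2 read 68.7, 82.8 and 76.8 TPM at MCE1 and 128, 117 and 88.1 TPM at MCE2, 0.0333, 0 and 0 TPM in Control and 14.4, 14.6 and 22.6 TPM at Day8 (adjusted p = 6.38e-06), and was highest at Day4, at 168 ± 8.99 TPM. Of the 13 erythroid and eosinophil markers listed, 3 passed the filter (Ear1, Ear2 and Epor), and the summed level of the 13 was 5.93 to 6.77 TPM in Control, 78.1 to 138 TPM at the MCE stages and 27.6 to 34.5 TPM at Day8. Epx, Siglecf, Ccr3, Il5ra, Ear6, Hba-a1 and Hbb-b1 were listed at 0 in all 12 libraries. On chromosome 1, from 175653559 to 175961886, 4 of 7 genes tested were peaks, Ifi204, Ifi205, Ifi207 and Ifi211, of a family of nucleic acid sensors. Ifi204 read 402, 447 and 436 TPM at MCE1 and 266, 325 and 334 TPM at MCE2, 45.4, 44.6 and 46.6 TPM in Control and 20.7, 25.9 and 28 TPM at Day8 (gap 2.73, adjusted p = 2.26e-08). The call of Ifi205 ended with a pseudocount of 0.1 (adjusted p = 0.0927). On chromosome 7, from 148134858 to 148196643, all 3 genes tested were peaks, the membrane proteins Ifitm2, Ifitm3 and Ifitm5. Ifitm2 stood at 1683 ± 97.6 and 2134 ± 43.9 TPM at the MCE stages, 649 ± 27.8 TPM in Control and 404 ± 96.5 TPM at Day8 (adjusted p = 2.01e-05), while the call of Ifitm5, at 7.09 ± 0.674 TPM at MCE1, ended with a pseudocount of 0.1 (adjusted p = 0.19). The Ear and Ifi genes are close copies of each other, and their separate values are uncertain. Genes of epithelia were among the peaks too. Krt13 and Krt15, keratins of stratified epithelium, read 121, 123 and 147 and 33.7, 39.3 and 45.2 TPM at MCE2, 3.13, 1.92 and 4.57 and 2.21, 3.86 and 4.11 TPM in Control, and 7.76, 8.05 and 7 and 0, 0.747 and 1.16 TPM at Day8 (adjusted p = 5.27e-06 and 0.000105). The 10 epithelial markers, which do not include these, summed to at most 1.04 TPM in Control, 2.17 to 6.00 TPM at the MCE stages and 19.6 to 24.5 TPM at Day8, and their part in the values of Krt13 and Krt15 was not tested.

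The machinery of growth was higher at the MCE stages than at Day8, but much of it was as high in Control, the list median of ribosome biogenesis genes being 0.16 above Control at MCE1, -0.02 at MCE2 and -1.34 at Day8. Of 39 ribosome biogenesis genes 5 were peaks and 0 troughs (4.03% and 6.82% of all genes tested were), although 37 were higher in the pooled difference (27.7% of all genes tested were) and 0 lower. Bop1, a factor in making the large ribosomal subunit, read 144, 131 and 132 TPM at MCE1 and 142, 137 and 139 TPM at MCE2, 92.6, 91.1 and 86.3 TPM in Control and 41.2, 40.4 and 38.5 TPM at Day8 (gap 0.59, adjusted p = 1.5e-05). Noc4l, Bysl, Nolc1 and Nop16 were the other peaks, with gaps of 0.49, 0.48, 0.40 and 0.29. The count of peaks in this list was 10 with median-ratio scaling, and the call of Nop16 ended without any 1 of Control replicates 2 and 3 or MCE1 replicates 1, 2 and 3 or MCE2 replicates 1 and 3 (adjusted p = 0.0502 to 0.142). Myc, the transcription factor that drives ribosome production, read 75.8, 77.1 and 47.3 TPM at MCE1 and 98.2, 115 and 114 TPM at MCE2. Myc was at 42.9, 42 and 37.6 TPM in Control and 13.8, 14.9 and 17.3 TPM at Day8. MCE1 replicate 3 lay near the Control libraries, and the call of Myc (adjusted p = 0.0208) ended without any 1 of Control replicates 2 and 3 or MCE1 replicates 1 and 2 and in a fit on all 18 libraries (adjusted p = 0.055 to 0.177). Of 32 nucleotide and one-carbon genes 3 were peaks (Dhodh, Impdh2 and Adsl) and 2 troughs (Phgdh and Psat1), the peaks being enzymes of nucleotide synthesis and the troughs enzymes of serine synthesis. Impdh2, which makes guanine nucleotides, read 399.8, 406 and 404 TPM at MCE1 and 402, 382 and 394 TPM at MCE2. Impdh2 was at 277, 284 and 272 TPM in Control and 112, 108 and 112 TPM at Day8 (adjusted p = 4.17e-06). Control lay between the MCE stages and Day8. Phgdh, which opens serine synthesis, read 169, 169 and 174 TPM at MCE1 and 132, 122 and 137 TPM at MCE2. Phgdh was at 529.6, 503 and 475 TPM in Control and 333, 269 and 284 TPM at Day8 (adjusted p = 2.78e-05). The call of Adsl ended without any 1 of Control replicates 2 and 3 or MCE1 replicates 1, 2 and 3 or MCE2 replicates 1, 2 and 3 (adjusted p = 0.0584 to 0.149). Srm, spermidine synthase, was the 1 peak of 13 polyamine genes (gap 0.61, adjusted p = 2.79e-05).

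DNA replication and mitosis genes gave no called peak or trough. Of 51 replication genes 42 were higher in the pooled difference and 0 lower (median 0.74), and of 49 mitosis genes 45 were higher and 0 lower (median 0.83), yet limma called 0 of either list a peak or a trough. Among all genes tested 27.7% were higher and 38.9% lower. By the order of the means alone 1 replication gene and 0 mitosis genes met the rule, and 1 mitosis gene was a peak with median-ratio scaling. The medians of the group means against Control were 0.27 at MCE1 in both lists, -0.83 and -1.34 at MCE2, and -2.08 and -2.96 at Day8, so the list medians at MCE2 lay between Control and Day8. Pcna, the sliding clamp of DNA polymerases, read 563, 558 and 519 TPM in Control, 812, 849.7 and 818 TPM at MCE1, 296, 319 and 317 TPM at MCE2 and 101, 105 and 105 TPM at Day8. Top2a, which untangles DNA, read 545, 598 and 574 TPM at MCE1, but 221, 256 and 252 TPM at MCE2 against 254, 235 and 240.0 TPM in Control. It was no member, and was called a peak only with median-ratio scaling among the settings tried. Among 29 G1 cyclins and cell cycle inhibitors 2 were peaks (Gas6 and Tob2) and 3 troughs (Cdkn2b, Ccnd2 and Cdkn2a), near the 4.03% and 6.82% of all genes. The INK4 inhibitor Cdkn2b read 40.05, 38.2 and 37.3 TPM at MCE1 and 32.6, 33.1 and 30.6 TPM at MCE2, 133, 135 and 140.1 TPM in Control and 100.1, 74.4 and 83.6 TPM at Day8 (adjusted p = 5.14e-06). Its neighbour Cdkn2a stood at 204 ± 1.81 and 239.5 ± 13.4 TPM at the MCE stages, 409.9 ± 11.5 TPM in Control and 405 ± 89.98 TPM at Day8 (adjusted p = 0.00153). Ccnd2, a D-type cyclin, was also lower at the MCE stages, at 95 ± 1.79 and 133 ± 6.27 TPM against 242 ± 6.49 and 278 ± 22.7 TPM at the ends (adjusted p = 1.89e-06), whereas Ccnd1 was lower in each later group and was no member. Gas6, a ligand of growth-related receptors, read 730.3, 724 and 729 TPM at MCE1 and 516, 526 and 522 TPM at MCE2. Gas6 was at 92.5, 95.2 and 101 TPM in Control and 169.5, 177 and 167 TPM at Day8 (gap 1.60, adjusted p = 1.75e-09).

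**Figure D2:**
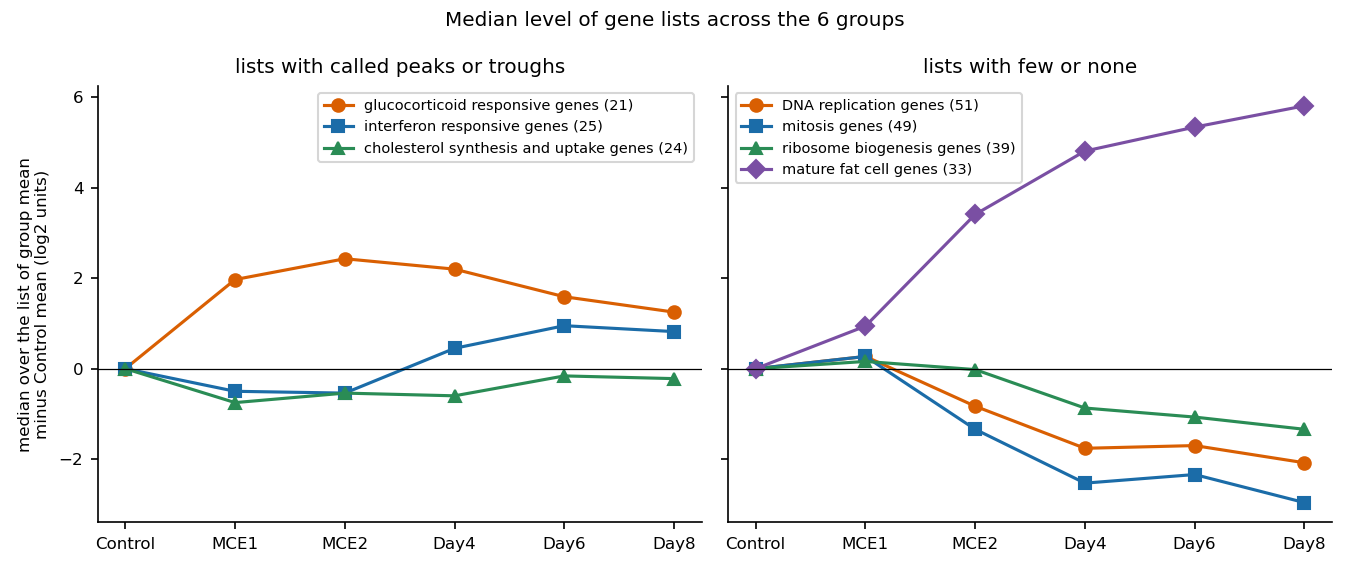
Median over the genes of a list of the group mean minus the Control mean, in log2 units of log2(TPM + 1), for each of the 6 groups, with the number of genes tested in parentheses. In the left panel the glucocorticoid list stands at 1.97 and 2.43 at MCE1 and MCE2, 2.20 at Day4, 1.59 at Day6 and 1.25 at Day8. The interferon list dips to -0.50 and -0.54 before ending at 0.82. In the right panel the replication and mitosis lists are below Control from MCE2 on and the mature fat list is higher in each later group.

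The troughs with the largest gaps were Spp1, Mustn1, Thbs2 and Nr1d2. Spp1 (chromosome 5, 104864130 to 104870072), the secreted phosphoprotein osteopontin, read 44.5, 45.6 and 54.5 TPM at MCE1 and 17.6, 22.1 and 24.1 TPM at MCE2. Control read 1103, 1118 and 1134 TPM and Day8 406, 488 and 473 TPM, so the 6 MCE libraries lay below all others (pooled difference -4.44 ± 0.08, adjusted p of the trough = 1.36e-08). Thbs2 (chromosome 17, 14802507 to 14831269), thrombospondin 2, an inhibitor of vessel growth in the matrix, read 27.3, 26.4 and 23.4 TPM at MCE1 and 24.4, 25.2 and 24.4 TPM at MCE2. Thbs2 was at 278, 303 and 322 TPM in Control and 223, 244 and 198 TPM at Day8. MCE2 minus MCE1 was -0.06 ± 0.08 (± SE, adjusted p = 0.642), and the gap to the ends was 3.06 (adjusted p = 1.91e-09). Mustn1, a small nuclear protein of the musculoskeletal lineage, read 21.5, 24.5 and 22.4 TPM in Control, 12.5, 16.9 and 16.2 TPM at Day8 and at most 1.19 TPM in an MCE library (adjusted p = 4.5e-06). Dhrs9, a retinol dehydrogenase, Akap12, a scaffold for protein kinase A, Pkp2, a desmosome protein, and Alcam, an adhesion molecule, had gaps of 2.53, 2.38, 2.33 and 2.21. Mmp11, a matrix protease, read 3.38, 2.96 and 3.68 TPM at MCE1 and 5.97, 6.4 and 6.41 TPM at MCE2. Mmp11 was at 28.6, 33.6 and 39.1 TPM in Control and 146, 150.3 and 147 TPM at Day8 (adjusted p = 8.65e-08). Day8 was the highest of these 4 groups. Rhoq, the small GTPase TC10 that acts in insulin-stimulated glucose transport, read 14.2, 15.7 and 15.8 TPM at MCE1 and 17.6, 22.4 and 19.9 TPM at MCE2. Rhoq was at 94.2, 97 and 104 TPM in Control and 151, 169.7 and 144 TPM at Day8 (adjusted p = 2.79e-08).

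**Figure D3:**
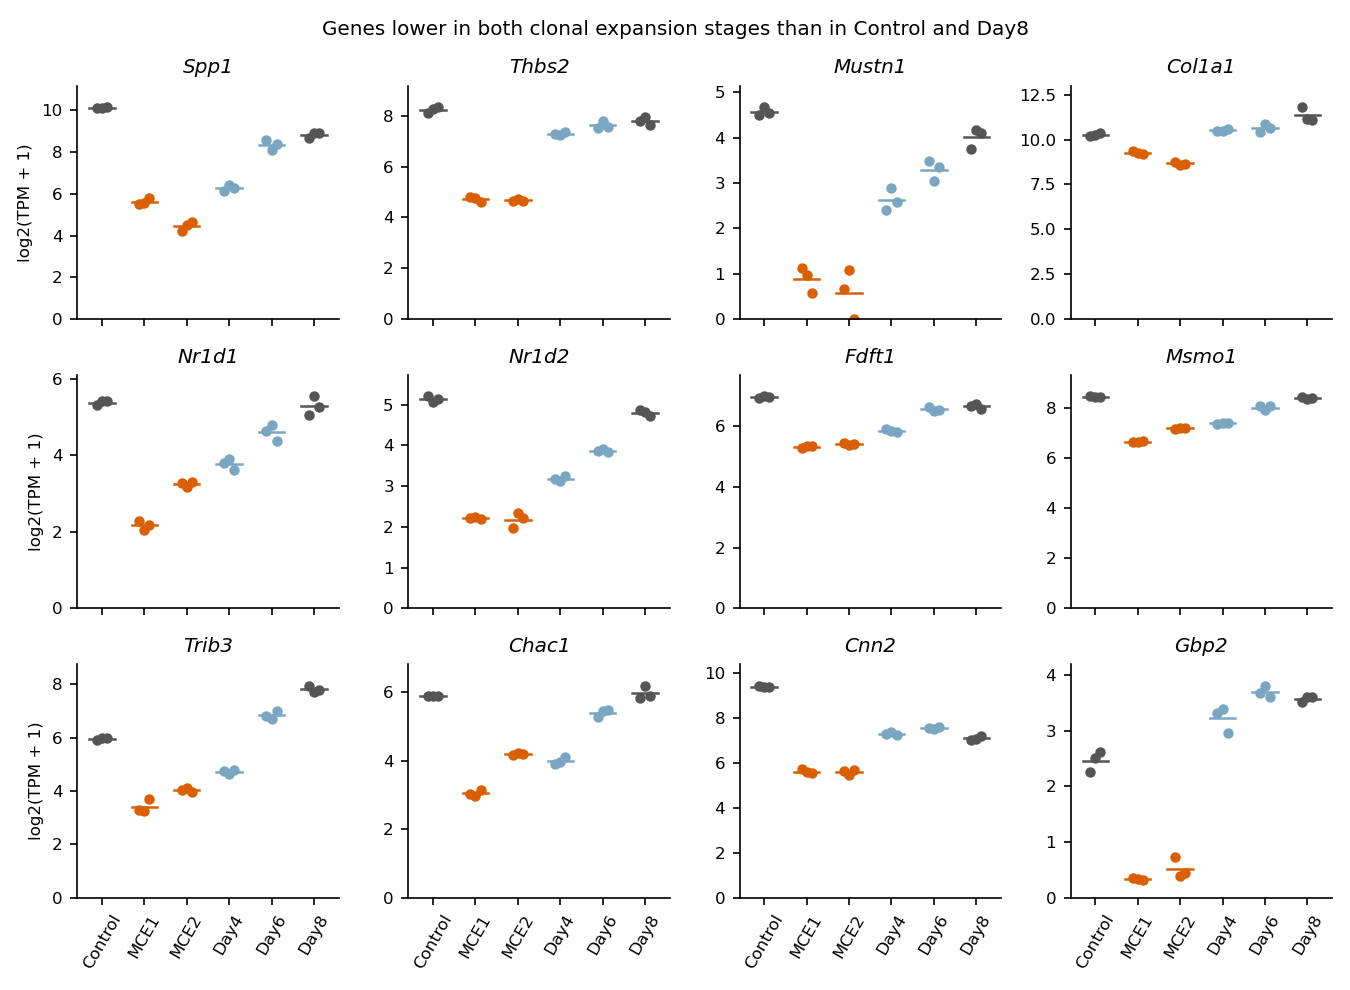
Level of 12 called troughs in each of the 18 libraries, as log2(TPM + 1) on the vertical axis (starting at 0) against the 6 groups, with points and lines as in the plot of peaks. In each panel the 6 orange points lie below the 6 grey ones, while Col1a1 is back at or above Control by Day4 and Gbp2 ends above Control.

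Smooth muscle contractile and cytoskeletal genes gave 8 troughs and 0 peaks of 29 tested (9 and 0 by the order of means), with 25 lower in the pooled difference (38.9% of all genes tested were) and 2 higher. Troughs made up 6.82% of all genes tested and peaks 4.03%. The list medians against Control were -1.73 at MCE1, -1.92 at MCE2, -2.13 at Day4, -1.98 at Day6 and -2.30 at Day8. By its median the list thus stayed low after the MCE stages and was lowest at Day8. In each of the 8 troughs both MCE means were nearer to Day8 than to Control. Acta2, the smooth muscle actin of activated fibroblasts, read 7.46, 5.75 and 7.6 TPM at MCE1 and 5.67, 5 and 6.28 TPM at MCE2, 1073, 981 and 933 TPM in Control and 18.1, 15.3 and 13.3 TPM at Day8. The MCE libraries of Acta2 lay below the Day8 libraries by a gap of 1.06 (adjusted p = 0.000126), and Day8 minus Control was -5.92 log2 units (adjusted p = 4.87e-12). Cnn2, a calponin that binds actin, read 51.1, 46.4 and 45.1 TPM at MCE1 and 49.3, 43.1 and 50.4 TPM at MCE2. Cnn2 was at 687, 658 and 655 TPM in Control and 129, 131 and 143 TPM at Day8 (adjusted p = 8.65e-08). Myl9, a myosin light chain, was at or under 0.979 TPM in each MCE library, 94.6 ± 6.31 TPM in Control and 2.07 ± 0.393 TPM at Day8 (adjusted p = 0.00416). Myl9 thus passed the filter of 1 TPM through the end libraries alone, and its call is a description. The others were Tpm1 and Tpm2 (tropomyosins), Vcl (vinculin), Thbs1 and Lmod1, of which the call of Thbs1 ended without any 1 of MCE1 replicates 2 and 3 or Day8 replicates 1 and 2 (adjusted p = 0.0511 to 0.0964), and that of Lmod1 without any 1 of Control replicates 1, 2 and 3 or MCE1 replicates 1, 2 and 3 or MCE2 replicates 2 and 3 or Day8 replicates 2 and 3, with a pseudocount of 0.1, under quantile normalization and with a replicate block (adjusted p = 0.0619 to 1). The CArG box, the site of serum response factor, stood in 3 of 7 matched troughs of this list (Cnn2, Myl9 and Vcl), in 1% of matched peaks, 1.53% of matched troughs, 1.27% of all genes tested and 1.47% of all promoters. The windows, with the box in capitals, are shown for these troughs, for Cnn2 (chr10:79988480-79988599, plus strand), Myl9 (chr2:156775248-156775367, plus strand) and Vcl (chr14:20929148-20929267, plus strand) in GRCm38.p6.
Cnn2: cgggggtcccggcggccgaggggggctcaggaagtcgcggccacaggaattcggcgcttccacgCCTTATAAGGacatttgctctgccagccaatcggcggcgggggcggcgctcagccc
Myl9: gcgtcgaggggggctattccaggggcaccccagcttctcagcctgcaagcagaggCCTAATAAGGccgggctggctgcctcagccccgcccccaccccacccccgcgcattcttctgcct
Vcl: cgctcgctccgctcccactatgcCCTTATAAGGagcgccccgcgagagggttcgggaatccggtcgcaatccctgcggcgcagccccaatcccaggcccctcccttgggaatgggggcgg

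Of 38 fibrillar collagens and matrix enzymes 4 were troughs (Col1a1, Col1a2, Col5a2 and Mmp13) and 2 peaks (the enzymes Adamts1 and Loxl1), with 21 lower and 10 higher in the pooled difference. Over all genes 6.82% were troughs, 4.03% peaks, 38.9% lower and 27.7% higher. The counts of troughs, peaks and genes higher are near those shares, while the count lower is above its share. The median pooled difference of the list was -0.40 log2 units against -0.09 over all genes. Col1a1 (chromosome 11, 94797538 to 94814356), the main chain of type I collagen, read 647, 606 and 595 TPM at MCE1 and 436, 390.3 and 405 TPM at MCE2, 1182, 1209 and 1313 TPM in Control and 3569, 2289 and 2186 TPM at Day8. All 6 MCE libraries were below the ends (adjusted p = 0.000611), and Day8 was above Control (1.08, adjusted p = 3.3e-05). Its partner Col1a2 and Col5a2 of type V collagen had gaps of 0.73 and 0.64 (adjusted p = 0.00125 and 0.000347). Among 19 basement membrane and collagen VI genes 3 were peaks (Col4a1, Col4a2 and Col6a2) and 1 a trough (Col4a5). Col4a1 and Col4a2, the chains of the common type IV collagen, are transcribed from neighbouring genes, which lie beside the peak Irs2 on chromosome 8. Col4a2 read 1740.1, 1617 and 1551 TPM at MCE1 and 1259.5, 1221 and 1225 TPM at MCE2. Col4a2 was at 322, 323 and 345 TPM in Control and 923, 853 and 716 TPM at Day8 (gap 0.58, adjusted p = 0.000417). Day8 lay between Control and the MCE stages. The X-linked chain Col4a5 went the other way, with 9.71, 10.05 and 9.36 TPM at MCE1 and 10.3, 8.53 and 10.9 TPM at MCE2. Col4a5 was at 46.9, 49.7 and 56.1 TPM in Control and 91.4, 82.2 and 75.4 TPM at Day8 (gap 2.25, adjusted p = 7.59e-08). With quantile normalization 1 basement membrane gene was a peak, since the call of Col4a1 ended under quantile normalization (adjusted p = 0.123) and that of Col6a2 without any 1 of MCE2 replicates 1 and 3 or Day8 replicate 3, under quantile normalization and with a replicate block (adjusted p = 0.0551 to 1). Adamts1, a protease of matrix proteoglycans, was the larger of the matrix enzyme peaks, with 535 ± 17.8 and 451 ± 25.1 TPM at the MCE stages, 71.6 ± 1.25 TPM in Control and 177 ± 14.8 TPM at Day8 (gap 1.35, adjusted p = 7.81e-08).

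Genes of cholesterol synthesis and uptake gave 9 troughs and 0 peaks of 24 tested, 14 and 2 by the order of means (6.82% of all genes tested were troughs). In the pooled difference 20 were lower and 2 higher, against 38.9% and 27.7% of all genes. The 9 were Fdft1, Msmo1, Sc5d, Tm7sf2, Sqle, Insig1, Ebp, Fdps and Mvd, all enzymes of the pathway except Insig1, which retains the SREBP activator in the endoplasmic reticulum. Fdft1, squalene synthase, read 38.2, 39.9 and 39.3 TPM at MCE1 and 42.1, 40.6 and 41.6 TPM at MCE2. Fdft1 was at 119.8, 125 and 123 TPM in Control and 100.5, 106 and 93.8 TPM at Day8 (gap 1.25, adjusted p = 3.85e-08). Both MCE stages lay under either end in each library. Msmo1, a sterol demethylase, read 96.9, 97.9 and 100.2 TPM at MCE1 and 139, 145 and 144 TPM at MCE2. Msmo1 was at 347, 341 and 346 TPM in Control and 340.5, 321 and 329 TPM at Day8 (gap 1.21, adjusted p = 8.68e-09). Day8 minus Control of Msmo1 was -0.06 ± 0.04 (± SE, adjusted p = 0.174) and did not pass, while Insig1 ended above Control by 2.19 (adjusted p = 9.94e-11). Insig1 stood at 109 ± 8.35 TPM in Control, 40.8 ± 2.32 and 79.9 ± 3.16 TPM at the MCE stages and 502 ± 30.6 TPM at Day8. Hmgcs1, an early enzyme of the pathway, was listed at 0 in all 18 libraries and could not be tested. The sterol response element TCACNCCAC stood in 0 of the 6 matched troughs of the list, in 1.75% of all matched peaks, 0.613% of all matched troughs and 1.17% of all genes tested, which says only that these letters are not in the windows searched. Of the same list 1 gene was a peak with median-ratio scaling and 2 with quantile normalization. The fatty acid desaturases Fads1, Fads2 and Fads3, neighbours on chromosome 19 that make polyunsaturated fatty acids, were troughs as well. Fads3 read 58.2, 60.6 and 60.5 TPM at MCE1 and 41.7, 42.6 and 46.2 TPM at MCE2. Fads3 was at 166, 156 and 156 TPM in Control and 219, 232 and 213 TPM at Day8, and the gaps of Fads1, Fads2 and Fads3 were 0.89, 1.03 and 1.40 (adjusted p = 1.28e-05, 4.66e-06 and 2.14e-08).

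The stress response genes moved in both directions. Of 31 genes of the integrated stress and unfolded protein responses 9 were troughs and 4 peaks (6.82% and 4.03% of all genes tested were). The troughs were the ATF4-linked genes Trib3, Chac1 and Ddit3, the ubiquitin-like protein Herpud1, the aminoacyl-tRNA synthetases Aars, Sars, Gars and Wars, and the disulfide isomerase Pdia6. The peaks, Manf, Calr, Hyou1 and Creld2, are chaperones and secreted factors of the endoplasmic reticulum. Trib3, a pseudokinase that inhibits AKT, read 8.68, 8.56 and 12.1 TPM at MCE1 and 15.2, 16.1 and 14.7 TPM at MCE2. Trib3 was at 59.5, 62.4 and 62.7 TPM in Control and 246, 208 and 219 TPM at Day8 (gap 1.94, adjusted p = 4.05e-07). Day8 was the highest of these 4 groups. Chac1, which degrades glutathione, read 7.19, 6.76 and 7.84 TPM at MCE1 and 16.9, 17.5 and 17.1 TPM at MCE2. Chac1 was at 58.4, 58.6 and 57.9 TPM in Control and 56.1, 71.8 and 58.4 TPM at Day8 (gap 1.71, adjusted p = 2.18e-07). Day8 minus Control of Chac1 was 0.08 ± 0.09 (± SE, adjusted p = 0.437) and did not pass, whereas Ddit3, the transcription factor CHOP, ended higher by 2.53 (adjusted p = 1.24e-10). Calr, calreticulin, read 2721, 2698 and 2746 TPM at MCE1 and 3014, 2712 and 2764 TPM at MCE2. Calr was at 1822, 1791 and 1829 TPM in Control and 1675, 1843 and 1749.6 TPM at Day8 (gap 0.59, adjusted p = 6.39e-06). The call of Wars ended without any 1 of Control replicates 1 and 2 or MCE1 replicates 1, 2 and 3 or MCE2 replicates 1, 2 and 3 or Day8 replicates 1 and 3, without the filter on low values, under median-ratio scaling, under quantile normalization and with a replicate block (adjusted p = 0.0506 to 1), and that of Sars under median-ratio scaling (adjusted p = 0.0873). The amino acid response element TGATGNAA stood in 4 of the 8 matched troughs of this list (Chac1, Aars, Gars and Herpud1), in 1.75% of matched peaks, 3.83% of matched troughs, 2.19% of all genes tested and 3.45% of all promoters. The windows of Chac1 (chr2:119350993-119351112, plus strand), Aars (chr8:111033674-111033793, plus strand) and Herpud1 (chr8:94386261-94386380, plus strand) are shown with the match in capitals, where it lies on the opposite strand.
Chac1: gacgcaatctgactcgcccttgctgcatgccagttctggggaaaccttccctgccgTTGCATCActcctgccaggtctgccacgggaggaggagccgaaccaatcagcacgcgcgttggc
Aars: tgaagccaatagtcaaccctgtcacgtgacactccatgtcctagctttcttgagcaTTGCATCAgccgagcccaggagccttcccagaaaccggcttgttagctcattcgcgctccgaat
Herpud1: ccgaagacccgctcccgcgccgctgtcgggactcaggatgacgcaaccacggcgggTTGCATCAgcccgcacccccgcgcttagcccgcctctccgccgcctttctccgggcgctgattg
Among 19 amino acid transporters 2 were troughs, the neutral amino acid carrier Slc1a4 and the lysosomal carrier Slc36a1, with gaps of 1.22 and 1.12, and 1 a peak, Slc7a6, whose call ended without any 1 of Control replicates 1 and 2 or MCE1 replicates 2 and 3 (adjusted p = 0.0519 to 0.0695). These counts are near the shares of all genes, 6.82% troughs and 4.03% peaks. Of 24 heat shock and chaperonin genes 3 were peaks (Hspe1, Cct3 and Cct2) and 3 troughs (Hspa1a, Hspa1b and Hspa9), where 4.03% and 6.82% of all genes were. With median-ratio scaling 0 were troughs and 5 peaks. The count of peaks was 1 without Control replicate 2, without Control replicate 3 or without MCE1 replicate 2. The call of Cct2 ended without any 1 of Control replicates 2 and 3 or MCE1 replicates 2 and 3 (adjusted p = 0.107 to 0.139), and that of Cct3 without any 1 of Control replicates 2 and 3 or MCE1 replicates 1 and 2 (adjusted p = 0.0668 to 0.105). That of Hspa9 ended under median-ratio scaling (adjusted p = 0.784), that of Hspa1a without any 1 of Control replicate 1 or MCE1 replicates 2 and 3, under median-ratio scaling and under quantile normalization (adjusted p = 0.0619 to 0.126) and that of Hspa1b under median-ratio scaling (adjusted p = 0.0515). Hspa1a and Hspa1b are near-identical copies, so their separate values are uncertain.

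Clock genes gave 5 troughs and 2 peaks of 16 tested (6.82% and 4.03% of all genes tested were), and Nr1d1 and Per1 were counted in lists above too. The troughs were Nr1d1 and Nr1d2, which encode the REV-ERB repressors, the PAR-domain factor Dbp, Bhlhe41 and Per3, and the peaks were Nfil3, a repressor that competes with Dbp for its sites, and Per1. Nr1d2 read 3.63, 3.71 and 3.6 TPM at MCE1 and 2.91, 4.06 and 3.62 TPM at MCE2. Nr1d2 was at 35.8, 32.3 and 34.4 TPM in Control and 28, 27.5 and 25.6 TPM at Day8 (gap 2.59, adjusted p = 2.26e-08). The libraries of the MCE stages overlapped each other. Nr1d1 read 3.89, 3.14 and 3.52 TPM at MCE1 and 8.77, 8.03 and 8.88 TPM at MCE2. Nr1d1 was at 38.4, 41.4 and 42 TPM in Control and 32.3, 45.4 and 37.1 TPM at Day8 (gap 2.03, adjusted p = 4.06e-07). Both repressors were thus low at both stages and came back towards Control. Dbp read 1.02, 1.35 and 1.36 TPM at MCE1 and 5.87, 5.36 and 5.84 TPM at MCE2. Dbp was at 14.8, 16.9 and 19.5 TPM in Control and 114, 107 and 109 TPM at Day8, so it was low at MCE1, partly up at MCE2 (1.58, adjusted p = 4.53e-07) and ended above its start. Nfil3 read 121, 111 and 105 TPM at MCE1 and 96.7, 104 and 112 TPM at MCE2. Nfil3 was at 14.6, 13.8 and 12.6 TPM in Control and 37.3, 35.2 and 37 TPM at Day8 (gap 1.49, adjusted p = 2.18e-07). Day8 lay between Control and the MCE stages. Per1, which responds to both glucocorticoids and cAMP, read 79.3, 75.7 and 74.4 TPM at MCE1 and 62, 66.6 and 68.7 TPM at MCE2. Per1 was at 11.8, 9.56 and 13.1 TPM in Control and 22.4, 26.5 and 23.9 TPM at Day8 (adjusted p = 2.45e-06). The call of Per3 ended without any 1 of Control replicates 2 and 3 or MCE1 replicates 1, 2 and 3 or MCE2 replicates 1, 2 and 3 or Day8 replicate 2, without the filter on low values, under median-ratio scaling and under quantile normalization (adjusted p = 0.051 to 0.524). The labels give no time of day for any sample.

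Interferon responsive genes gave 9 troughs and 0 peaks of 25 tested (15 and 0 by the order of means), with 20 lower and 1 higher in the pooled difference, most of them at low TPM. Shares over all genes tested were 6.82% troughs, 4.03% peaks, 38.9% lower and 27.7% higher. The 9 were Gbp2, Ifit3, Rtp4, Xaf1, Ifit1, Ifit2, B2m, Ddx58 and Bst2. Gbp2, a guanylate-binding protein of cell defence, read 0.276, 0.257 and 0.252 TPM at MCE1 and 0.657, 0.307 and 0.365 TPM at MCE2. Gbp2 was at 3.81, 4.69 and 5.12 TPM in Control and 10.4, 11.2 and 11.1 TPM at Day8 (gap 1.94, adjusted p = 1.32e-06). Every MCE library was under 1 TPM, so Gbp2 passed the filter through the end libraries alone. The same held for Ifit1, Ifit3, Ifit3b, Atf3, Ccl9 and Lmod1, and the calls of these genes are descriptions. B2m, the light chain of class I histocompatibility molecules, was the most abundant of the 9, at 806, 865 and 1079.6 TPM at MCE1 and 623, 663 and 643 TPM at MCE2. B2m was at 1348, 1396 and 1392 TPM in Control and 1354, 1728 and 1549 TPM at Day8 (gap 0.60, adjusted p = 0.00215). The 4 Ifit genes tested on chromosome 19 (34625184 to 34724499), which encode RNA-binding proteins, were all troughs, Ifit3 at 0.3 ± 0.111 and 0.215 ± 0.0917 TPM at the MCE stages, 2.25 ± 0.609 TPM in Control and 8.16 ± 0.308 TPM at Day8 (adjusted p = 7.77e-05). The calls of the neighbours Ifit1 and Ifit2 ended, respectively, without any 1 of Control replicate 1 or MCE2 replicate 1 and under quantile normalization (adjusted p = 0.0629 to 0.122) and under quantile normalization (adjusted p = 0.0845), and that of Ddx58 without MCE2 replicate 1 (adjusted p = 0.0513). The interferon element, GAAA and GAAA with 2 bases between them, stood in 5 of 8 matched troughs of the list (Ifit1, Ifit3, Bst2, B2m and Gbp2), 5.5% of the 400 matched peaks, 4.44% of the 653 matched troughs, 2.95% of all genes tested and 2.98% of all promoters. Other genes named for interferon were not in this list and went the other way, namely the peaks Ifi204 and its neighbours, Ifitm2, Ifitm3 and Ifitm5. Ifitm3 stood at 1057.5 ± 66.75 and 950 ± 23.7 TPM at the MCE stages, 546 ± 14.1 TPM in Control and 243 ± 17.8 TPM at Day8. The count of 0 peaks therefore holds for the list as chosen. The windows of Ifit3 (chr19:34583318-34583437, plus strand) and Gbp2 (chr3:142620543-142620662, plus strand) are shown, with the matches, which lie on the opposite strand, in capitals.
Ifit3: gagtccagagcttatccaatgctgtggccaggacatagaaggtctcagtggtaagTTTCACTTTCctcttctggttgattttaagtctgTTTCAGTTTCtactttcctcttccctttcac
Gbp2: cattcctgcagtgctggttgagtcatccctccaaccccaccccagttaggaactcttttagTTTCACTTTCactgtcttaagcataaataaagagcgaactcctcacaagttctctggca

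Of 22 insulin and IGF signalling genes 3 were peaks (Socs2, Pik3r1 and Irs2) and 2 troughs (Irs1 and Igfbp7), with a median pooled difference of -0.12 against -0.09 over all genes. The adaptors of the insulin receptor were opposed, with Irs2 at 53.9, 52.7 and 50.8 TPM at MCE1 and 70.5, 73.1 and 74.3 TPM at MCE2. Irs2 was at 20.4, 19.7 and 21.2 TPM in Control and 36.4, 39.1 and 29.6 TPM at Day8 (gap 0.58, adjusted p = 0.00088). Day8 lay between Control and the MCE stages. Irs1 read 7.27, 7.05 and 6.96 TPM at MCE1 and 7.47, 9.61 and 8.61 TPM at MCE2. Irs1 was at 21.9, 19.96 and 20.4 TPM in Control and 30.5, 36.5 and 27.2 TPM at Day8 (gap 1.19, adjusted p = 2.33e-05). Socs2, which damps growth hormone signalling, read 71.4, 69 and 76.6 TPM at MCE1 and 64.9, 69.7 and 72.8 TPM at MCE2. Socs2 was at 21.7, 21.4 and 22.5 TPM in Control and 22.2, 22.6 and 23.3 TPM at Day8 (Day8 minus Control 0.05 ± 0.06 SE, adjusted p = 0.509, not passed). Of 28 Wnt and TGF-beta family genes 4 were peaks (Fst, Wnt4, Tgfbr2 and Bambi) and 3 troughs (Inhbb, Smad6 and Sfrp2), with a median of -0.16. The shares of troughs in both lists are near the 6.82% of all genes, of which 4.03% were peaks. Fst, follistatin, which binds activin, read 109, 115 and 110.0 TPM at MCE1 and 89.8, 97.8 and 58.4 TPM at MCE2. Fst was at 19.3, 16 and 13.7 TPM in Control and 18.4, 15.2 and 15.7 TPM at Day8 (gap 2.22, adjusted p = 4.35e-06). The libraries of the ends overlapped each other. Inhbb, a subunit of activin B, read 1.29, 1.1 and 1.17 TPM at MCE1 and 3.63, 3.49 and 3.85 TPM at MCE2. Inhbb was at 11.4, 10.1 and 11.3 TPM in Control and 65.4, 53.6 and 46.9 TPM at Day8 (gap 1.36, adjusted p = 1.2e-05), so the activin inhibitor was high where the activin subunit was low. Of 30 lysosome and autophagy genes 7 were troughs and 1, Atg12, a peak, and 22 were lower and 2 higher in the pooled difference. Over all genes 38.9% were lower and 27.7% higher. Sqstm1, the autophagy receptor p62, was a trough with a gap of 0.59 (adjusted p = 6.48e-06), and 4 genes of the list were troughs with median-ratio scaling. Of 33 mature fat cell genes tested limma called 0 peaks and 0 troughs, 0 met the rule by the order of means, 7 were higher and 21 lower in the pooled difference, and Lpl, lipoprotein lipase, read 101 ± 5.14, 463 ± 44, 1708 ± 90.6 and 5729.5 ± 338 TPM in Control, MCE1, MCE2 and Day8.

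**Figure D4:**
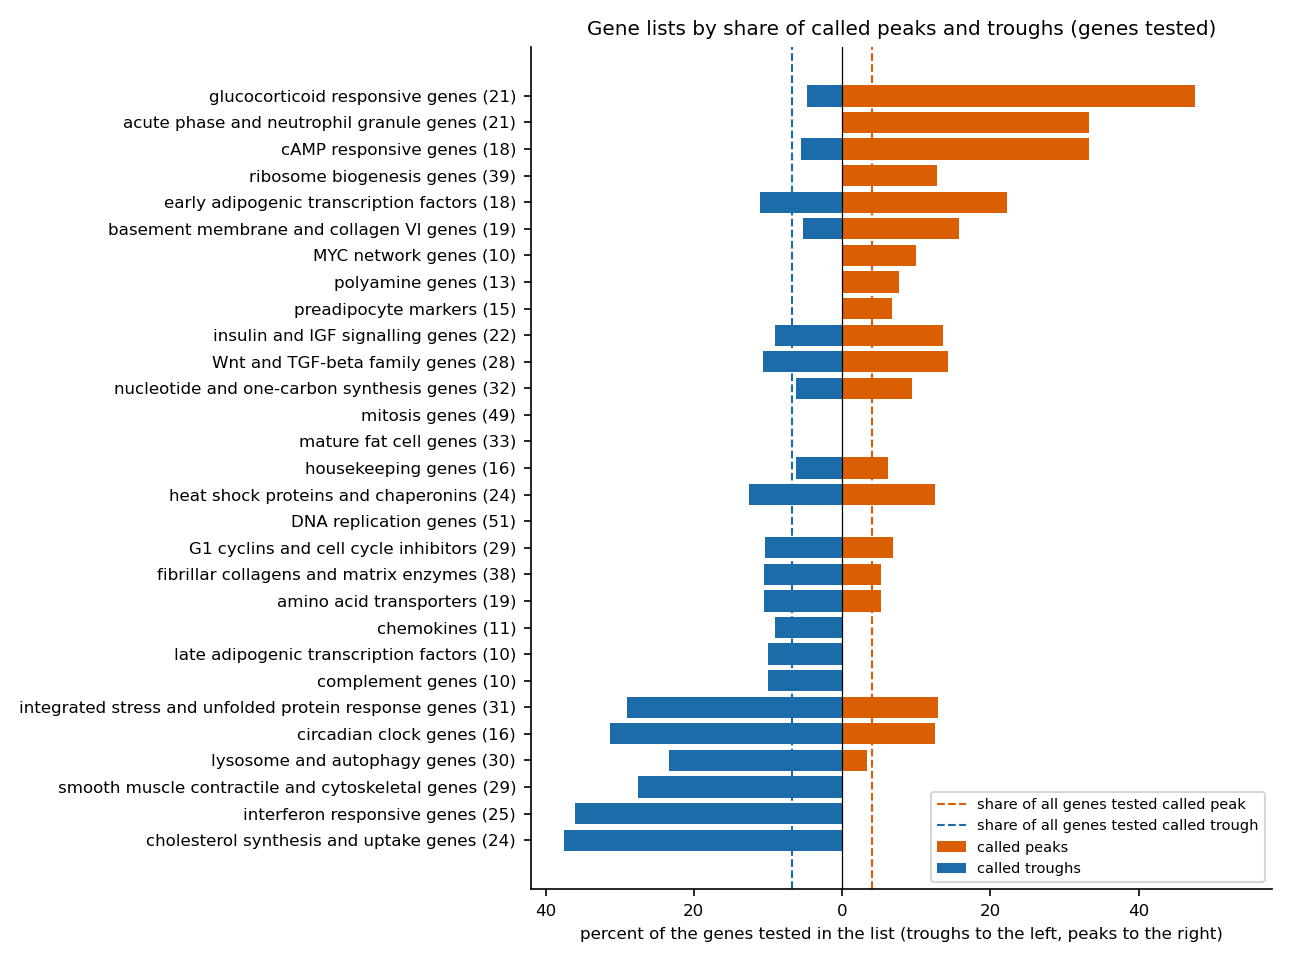
Percent of the genes tested in each of 29 lists that were called peaks (orange, to the right) and troughs (blue, to the left), with the number tested in parentheses; dashed lines mark the shares over all 12369 genes, 4.03% and 6.82%. The glucocorticoid list has the largest share of peaks, 10 of 21, and the cholesterol list the largest share of troughs, 9 of 24, while the replication, mitosis and mature fat lists have neither.

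Within the interval the called genes did not all keep one level. MCE2 minus MCE1 was not set by the rule, though it uses the same libraries as the calls, so these counts are descriptions. Among all genes 2202 were higher at MCE2 (17.8%) and 3195 lower (25.8%), a balance that became 2757 and 2656 with quantile normalization. Of the 499 peaks 119 were higher at MCE2, 108 lower and 272 not called, and of the 843 troughs 159 were higher, 146 lower and 538 not called. The peaks with the lowest MCE2 minus MCE1 were Sprr1b, a precursor of the cornified envelope, Ramp3, which modifies the calcitonin receptor family, and Akp3, an intestinal alkaline phosphatase. Sprr1b read 15.8, 12.7 and 14.7 TPM at MCE1 and 0.856, 0.426 and 0.448 TPM at MCE2, and was listed at 0 in the 12 libraries of the other groups. It passed the filter through the MCE1 libraries alone, and its MCE2 values were under 1 TPM. Ramp3 read 155, 137 and 146 TPM at MCE1, 19.7, 21.6 and 25 TPM at MCE2 and 8.05, 8.5 and 6.48 TPM in Control, a difference of -2.67 log2 units between the stages (adjusted p = 1.77e-07). The peaks that rose most to MCE2 were Cryge, a lens crystallin, with 1.4, 2.11 and 1.42 TPM at MCE1 and 19.7, 13.9 and 19 TPM at MCE2 and 0 at the ends, Ren1 and the retinol dehydrogenase Rdh12, whose call as a peak ended without any 1 of Control replicates 1, 2 and 3 or MCE1 replicates 1 and 2 or MCE2 replicates 1, 2 and 3 or Day8 replicates 2 and 3 and with a pseudocount of 0.1 (adjusted p = 0.0518 to 0.172). Cryge and Akp3, like Ren1, passed the filter through the MCE libraries alone. Among troughs Dusp4, a MAP kinase phosphatase, read 7.11, 7.5 and 5.67 TPM at MCE1 and 29.3, 26.4 and 30.4 TPM at MCE2 against 55.7, 53.6 and 55.3 TPM in Control, a rise of 1.94 (adjusted p = 1.24e-07). Sdc3, a syndecan, and Sfrp2, a Wnt antagonist, were lower at MCE2, with differences of -1.27 and -1.27 (adjusted p = 5.37e-07 and 1.41e-05).

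Day8 minus Control shows how far the called genes came back. Over all genes 3887 were higher at Day8 (31.4%) and 5033 lower (40.7%). Of the peaks 180 did not pass this test, 130 were higher at Day8 and 189 lower, and of the troughs 314 did not pass, 270 were higher and 259 lower. These counts share the Control and Day8 libraries with the calls.

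The libraries of Day4 and Day6 were not used to find the members, but both groups come before Day8. The rule sets that a peak is lower, and a trough higher, at Day8 than at the MCE stages. Some return on the way to Day8 is therefore set by the choice of genes, and the shares and counts here are descriptions. In both groups most called genes had moved back towards the ends. At Day4 the median peak kept 44% of the difference between the mean of the MCE stages and the mean of the ends, and the median trough 39.3%, and at Day6 the shares were 17.5% and 18.8%. With median-ratio scaling the share for peaks at Day4 was 32.7%. By position of the Day4 mean, 244 of 499 peaks lay between the MCE stages and the ends, 143 lay between the Control and Day8 means, 49 lay between the MCE means, 37 were higher than both MCE means and 26 lower than both ends. In the troughs the same counts were 448, 224, 71, 37 (lower than both MCE means) and 63 (higher than both ends). From Day4 to Day6 1820 of all genes rose (14.7%) and 1397 fell (11.3%). Of the peaks 226 fell (45.3%), 25 rose and 248 were not called, and of the troughs 322 rose (38.2%), 46 fell and 475 were not called. The 25 became 16 without Day6 replicate 2, and the 46 became 29 without Day4 replicate 3.

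**Figure D5:**
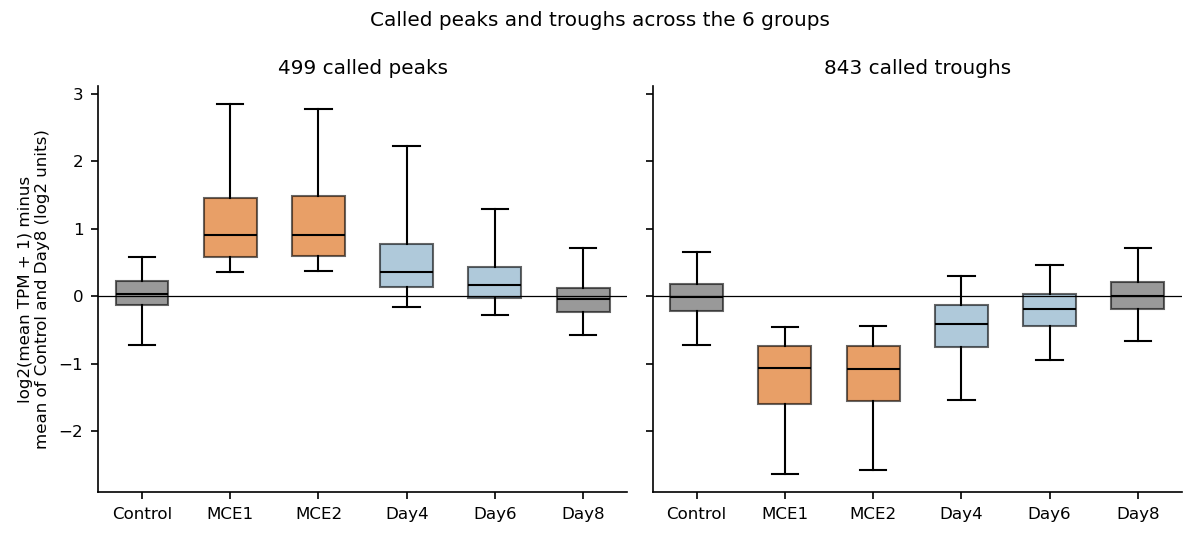
Distribution over the 499 called peaks (left) and 843 called troughs (right) of log2(mean TPM + 1) in each group minus the mean of the Control and Day8 values of the gene, in log2 units; boxes span the middle of the genes from the lower to the upper quartile, lines inside are medians and whiskers reach the 5th and 95th percentiles. Control and Day8 mirror each other about 0 by construction and MCE1 and MCE2 lie on 1 side by the choice of genes, while Day4 and Day6 have medians between. Libraries of Day4 and Day6 were not used, but a return by Day8 is set by the choice of genes.

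The falls from Day4 to Day6 are shown by the peaks described above. Orm3 read 176, 151 and 154 TPM at Day4 and 15.8, 22.9 and 18.2 TPM at Day6 and fell by 3.02 log2 units (adjusted p = 1.19e-08), and Fam107a fell by 2.77 (adjusted p = 2.49e-08). Fkbp5 read 542, 553 and 576 TPM at Day4, near its MCE level, and 91.3, 125 and 108 TPM at Day6, and fell by 2.37 (adjusted p = 1.02e-10). Tsc22d3 fell by 2.38 (adjusted p = 2.21e-09) and Retnla, with 32, 23.7 and 27.6 TPM at Day4 and 1.32, 4.49 and 5.74 TPM at Day6, fell by 2.70 (adjusted p = 2.26e-06). Other peaks were back near their end levels at Day4, as Pde4d (7.5 ± 0.269 TPM at Day4), Krt15 (0.95 ± 0.857 TPM) and Akp3 (at most 0.125 TPM). Irs2 and Nr4a1 were among the 25 peaks that rose, by 0.74 and 0.75 log2 units (adjusted p = 5.09e-05 and 3.37e-06). Of the troughs, Trib3 rose by 2.12, Spp1 by 2.09 and Inhbb by 1.94 (adjusted p = 2.25e-09, 1.18e-08 and 2.43e-08). Col1a1 and Col4a5 were already at 1462 ± 71.6 and 52.8 ± 7.71 TPM at Day4, at or above their Control levels, and were not called between Day4 and Day6 (adjusted p = 0.567 and 0.168). Cdkn2b stood at 113 ± 4.45 TPM at Day4 and fell by 0.44 to Day6 (adjusted p = 0.000906).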

How the data were processed

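Polyadenylated RNA of 3T3-L1 cells was measured in 18 libraries, and 12 of them (Control, MCE1, MCE2 and Day8, 3 each) entered the main comparison. Each library has a deposited list of TPM values by gene, with mm9 positions. Per the submitters' processing notes the authors used FastQC, cutadapt, HISAT2 and StringTie with the mm9 build, with no versions given. The annotation is not given in the sources used here. Sample titles gave the groups.

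No rescaling was applied. Genes reaching 1 TPM in 3 or more of the 12 libraries were kept, after leaving out 12 genes that Control replicate 1 lists at another locus. Log2(TPM + 1), which understates the change of low genes, was modelled by group means in limma 3.58.1, run in R 4.3.3 (8 residual and a median of 3.16 prior degrees of freedom, trend and robust options, 2-sided). Day6 minus Day4 came from a fit on all 18 libraries. All p-values were adjusted over 12369 genes by the Benjamini-Hochberg method. Errors are SDs over 3 libraries or SEs of the fit, and their number limits the precision. The fit was tested on simulated data. Python 3.11.15 with numpy 2.4.6 and pandas 2.3.3 made the tables, and matplotlib 3.10.9 the figures.

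The 35 gene lists of 10 to 52 genes, the members and the tests were chosen with earlier results of these data known. Genes were named by rule: the 15 peaks and 15 troughs with the largest gap (at least 10 TPM in the highest group, no overlap, no unnamed models), up to 5 peaks and 5 troughs of a list (or up to 2 abundant members where 0 were called), a panel, the genes at the edge of the rule, and the 3 with the most extreme MCE2 minus MCE1 on each side. The list members beyond 5, the neighbours in a stretch and the genes with a glucocorticoid palindrome (among them Map3k6, Fam107a, Krt15, Mt1, Fads1 to Fads3 and the Ifitm genes) were named after their values were seen. Alternatives were a pseudocount of 0.1, no filter, a filter of 5 TPM, median-ratio scaling, quantile normalization, all 18 libraries in the fit, a replicate block, 2 pools of 6 libraries, a size of at least 1 log2 unit, the order of mean TPM, leaving out genes with listing problems and leaving out each library. Some members of the lists are not reported here.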

Additional observations from a re-analysis of the deposited data

How the results depend on the processing

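Read counts were not used here, so depth could not be weighed, and with 3 libraries per group the spread between replicates limits every call. Requiring a size of at least 1 log2 unit as well gave 106 peaks and 205 troughs, and 510 genes higher and 1091 lower in the pooled difference, against 3426 and 4809, by construction. Fitting 2 pools of 6 libraries, where the differences between groups enter the error, gave 1139 higher and 1916 lower. Quantile normalization gave 4227 higher and 3960 lower and moved the median of the pooled difference over all genes from -0.09 to 0.03. Leaving out 1 library gave 404 to 539 peaks, 690 to 837 troughs, and 3230 to 3513 genes higher and 4396 to 4851 lower in the pooled difference. MCE2 minus MCE1 gave 1867 to 2021 higher and 2651 to 3138 lower, Day8 minus Control 3493 to 3783 and 4518 to 5056, and Day6 minus Day4 1466 to 1614 and 1060.0 to 1405. Of 185 called genes that could be named, 141 were tested and called in each of 21 other settings, 34 lost the call in at least 1, and 0 turned direction. The other 10 were called wherever tested but were not tested in at least 1: Bambi, Ifit3b, Rtp4, Serping1 and Xaf1 with the filter of 5 TPM, Cdkn2a, Krt13, Tpm1 and Tsc22d3 without genes with listing problems, and Sprr1b with any 1 of the MCE1 libraries left out. Settings added after the data were seen (no filter, a filter of 5 TPM, all 18 libraries and no listing problems, for the comparisons other than the calls and the pooled difference) kept each count within 1.5 times.

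Replicate numbers did not pair the samples. Deviations from the group means correlated at -0.07 to 0.06 over 18 pairs of libraries with the same number, 0 of them over 0.1, and at -0.11 to 0.14 between other numbers. With the replicate block 461 peaks and 793 troughs were called, 453 and 773 of them as before, and the pooled difference gave 3397 higher and 4781 lower.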
